A study of Rattus norvegicus with 17 samples.

Results

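The genes described here are those whose transcripts were scarcer in injured than in uninjured rat spinal cord. They were chosen by their measured values: a gene belonged to the group if its mean over the 9 uninjured rats was at least 1 CPM (counts of a gene scaled to a total of 1000000 counts per rat) and if the log2 ratio of the mean over the 8 injured rats to that mean, with 0.1 CPM added to each, was at or below -0.8. In all, 75 genes of the 14353 with an uninjured mean of at least 1 CPM met this rule (0.523%), out of 32494 genes in the table. A name was at hand for 14 of the 75, namely 12 small non-coding RNAs and 2 protein-coding genes, and the other 61 carry an Ensembl identifier alone. Because the comparison of injured with uninjured rats chose these genes, their low values after injury are given as a description, and tests are given for contrasts within the injured and within the uninjured rats. Group E supplied 5 of the 9 uninjured rats, so a gene high in E was chosen the more readily, and the comparison of E with A within the list is not independent of the rule. Groups B and C likewise supplied 6 of the 8 injured rats, so a gene low in B and C but not in D was favoured, and the comparisons of D with B and C are not independent of it either.

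The study asked whether stimulation of the nucleus raphé magnus (NRM), a serotonergic region of the brainstem that projects to the spinal cord, alters transcription after spinal cord injury (SCI). By the study's methods, the animals were female young-adult Sprague-Dawley rats, 10 to 12 weeks old, though its keywords name Brown Norway. All of the rats had an electrode placed in the NRM 3 days after surgery. Group A (4 rats) had neither injury nor stimulation, and group E (5 rats) was uninjured with 2 h of stimulation. Group B (3 rats) had SCI alone, group C (3 rats) SCI with stimulation, and group D (2 rats) SCI with stimulation preceded by pimozide at 1 mg/kg, a dopamine antagonist that also blocks serotonin 5-HT7 receptors. The injury was a moderate contusion at the thoracic segment T8, and some of the control rats had a laminectomy only. Cervical, thoracic and lumbar blocks with their pia and arachnoid were combined into 1 library per rat. The treatment label of group E called these rats unstimulated, against their titles and the study's design, and they were treated as stimulated. No injured group without stimulation received pimozide, and the 2 rats of D thus cannot show what pimozide does without stimulation.

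Total counts ranged from 9852873 to 14137717 per rat, so that 1 CPM stood for about 10 to 14 reads, and the scaling factors (TMM) from 0.966 to 1.05. The rat numbers fell into a low series (69 to 76) and a high series (82 to 95), which no label calls a batch. Per the methods, rats were assigned to groups in random order, and the samples of D and of 1 rat of E, which had not been used in an earlier assay as many of the others had, were collected over the same period. The low series held both rats of D, rat 70 of A and rat 69 of E. The labelled tissue could not be checked against markers of neurons, glia or other cord cells, as 29 of the 32 gene and marker lists drawn up had no member with a name in the table. In the small RNAs described below, rat 82 of A lay among the rats of E, and whether its label is right was not tested. In the other 63 members its median level (0.37 in log2, centred per gene) lay within A (0.31 to 0.44) and below every rat of E (0.40 to 0.67). The ranges of A and E overlapped in this measure. Its summed erythroid markers, at 1061 CPM, lay above every rat of E. Its summed granulocyte markers, at 16.0 CPM, lay within both A (6.39 to 88.6 CPM) and E (7.48 to 83.2 CPM). What group A stands for in the small RNAs depends on rat 82. Calls in the tests within the injured and within the uninjured rats are given with and without it. Ratios over A and tests of injured groups against A are given only with it. The granulocyte (10 of 10 genes) and erythroid (11 of 11 genes) marker lists were fully matched, and none of their genes was among the 75. In tissue RNA of this kind, fewer cells of a type and less RNA per cell cannot be told apart.

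The named genes act at different places in the cell. Small nuclear RNAs (snRNAs) form the core of the spliceosome, which removes introns from messenger RNA: U5 serves both the major and the minor spliceosome and U6atac only the minor one, which handles a rare class of introns. Small nucleolar RNAs (snoRNAs) guide chemical modification of other RNAs, the H/ACA type such as SNORA49 directing pseudouridylation and the C/D type such as SNORD67 directing methylation of the ribose. Y RNAs are short transcripts that bind the Ro60 protein. Slc17a7 encodes the vesicular glutamate transporter VGLUT1, which in the cord is found largely in terminals of primary afferents and of corticospinal axons, and Epx encodes the peroxidase of eosinophil granules.

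The members were mostly transcripts of low abundance. Their uninjured means ran from 1.00 to 1414 CPM with a median of 2.96 CPM, and 27 of the 75 lay under 2 CPM, 45 under 5 CPM and 67 under 50 CPM. The log2 ratio of injured to uninjured ran from -2.06 to -0.80 with a median of -0.91, whereas the median over all 14353 genes was 0.00. The 2 members just inside the threshold had log2 ratios of -0.8064 (3.60 CPM uninjured, 2.02 CPM injured) and -0.8034 (1.56 and 0.851 CPM). The 2 genes just outside it had log2 ratios of -0.7998 (137 and 78.6 CPM) and -0.7965 (2.38 and 1.33 CPM), so the limit falls within an unbroken run of values. When each rat was left out in turn the rule gave between 58 genes (without rat 89 of C) and 101 genes (without rat 75 of D), and 26 of the 75 were chosen every time.

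Among the 75 were a set that was low in every injured rat, a set of small RNAs that was low in only some of the groups, and genes whose uninjured mean rested largely on 1 rat, which did not share members and left the remaining genes in none of these sets. In 15 of the 75, all without a name, each of the 8 injured rats lay below each of the 9 uninjured rats; over all genes with an uninjured mean of at least 1 CPM this was so for 271 (1.89%). Since the rule used the same values, nothing is read from that difference. The 15 genes had uninjured means of 1.95 to 1414 CPM and were 1.77 to 2.93 times lower in the injured rats. Against the 9 uninjured rats their median log2 ratio was -0.92 in B, -0.96 in C and -0.90 in D. Of the 15, 9 were chosen whichever rat was left out.

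**Figure D1:**
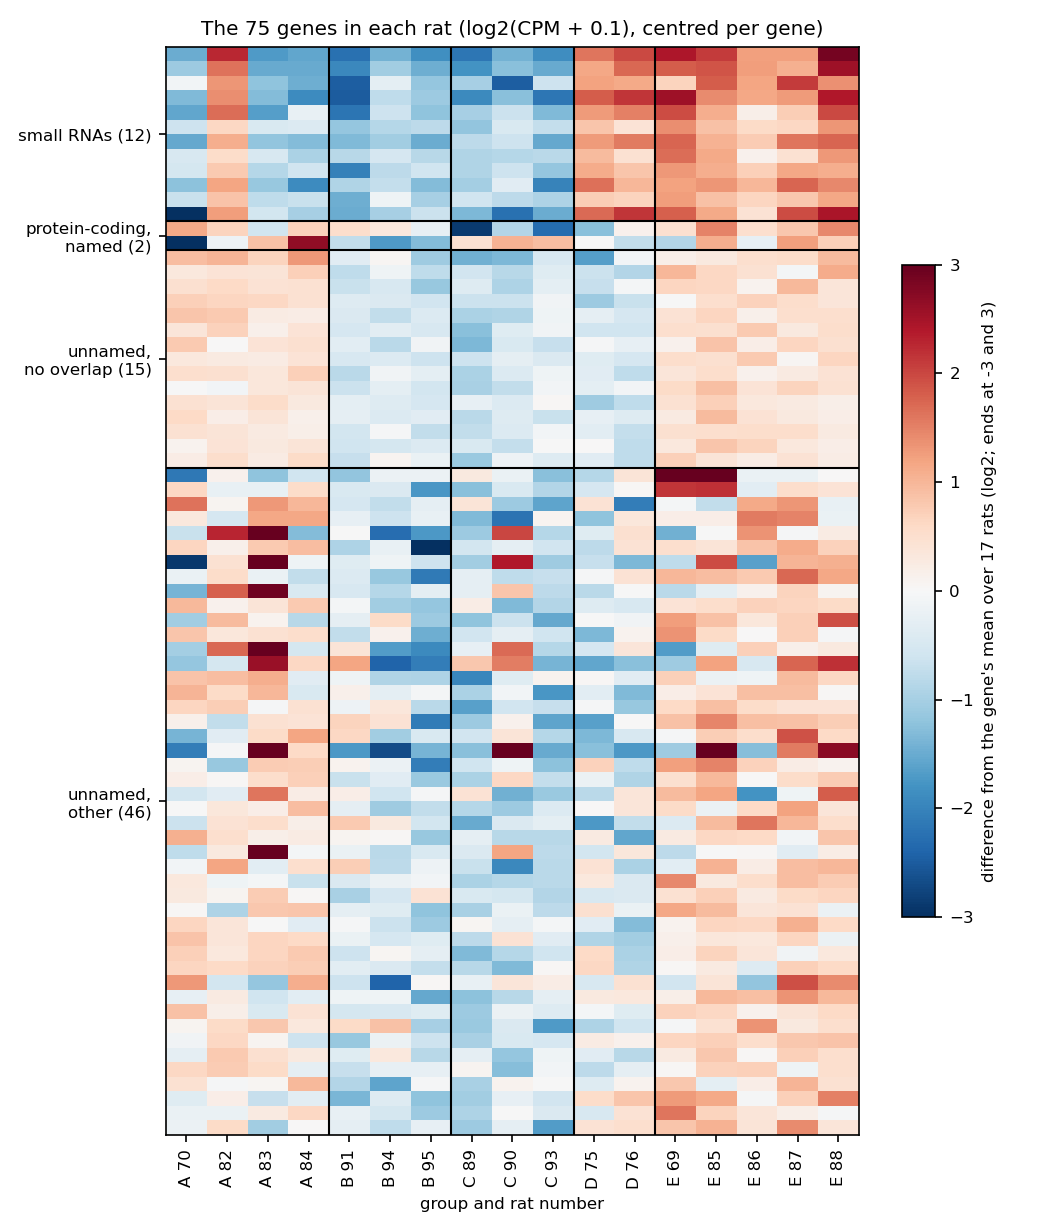
Levels of the 75 genes (rows) in the 17 rats (columns), as log2(CPM + 0.1) minus the gene's mean over all rats; red is above and blue below that mean, and colours end at -3 and 3. Small RNAs (top 12 rows) were high in E, in both rats of D and in rat 82 of A, while the 15 unnamed genes with no overlap were low in every rat of B, C and D.

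Of those 15, 2 well expressed genes are given by identifier as examples, picked after their values were seen. ENSRNOG00000015550 measured 1454, 1392, 1557 and 1303 CPM in the rats of A and 1461, 1755, 1330, 1281 and 1190 CPM in those of E. In the injured rats it measured 866, 809 and 744 CPM in B, 897, 800 and 1089 CPM in C, and 504 and 625.4 CPM in D. The 2 pimozide-treated rats were thus the lowest of all, and the D - C difference was -0.76 (SE 0.16) in log2(FC), with an unadjusted p of 0.000198 and an FDR of 0.112 by the edgeR quasi-likelihood test. ENSRNOG00000025121 measured 81.6, 87.2, 86.7 and 108 CPM in A and 132, 101, 89.8, 63.5 and 141 CPM in E. It measured 38.7, 60.7 and 39.0 CPM in B, 44.1, 37.1 and 50.8 CPM in C, and 41.8 and 35.6 CPM in D. Here the 3 injured groups lay on one another, with log2(FC) of -0.05 (SE 0.25) for C - B and -0.22 (SE 0.28) for D - C, and the nearest injured and uninjured rats were 60.7 CPM in B and 63.5 CPM in E.

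The 12 small RNAs, made up of 4 snRNAs, 4 snoRNAs and 4 miscellaneous RNAs, had another pattern. They were low in every rat of B and C, higher in both rats of D and in E, and in A high in rat 82 alone. The level in D was near that of E, with a median log2 ratio of D over E of -0.18 and 9 of the 12 lower in D. Their names came from the study's own list of genes that changed with stimulation or with pimozide in these same rats, and some of them are also in its list for stimulation of uninjured rats. Differences of C from B, D from C, D from B or E from A in the named genes are therefore not independent evidence. Summed over the 12, the level was 277, 2369, 224 and 230 CPM in rats 70, 82, 83 and 84 of A. The sum was 160, 291 and 218 CPM in B and 176, 264 and 210 CPM in C. In D it was 1637 and 2237 CPM, and in E 2691, 2457, 1495, 1416 and 4004 CPM. The lowest value in E or D was thus well above all values in B and C, and rat 82 lay among the rats of E. Rat 82 was the highest rat of A in 12 of the 12 small RNA members, and it was also the highest of A in 20 of the 21 other small RNAs with a name that did not meet the rule.

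The 2 Y RNA copies made up most of this sum. AABR07060522.2 (ENSRNOG00000056608), assigned to the Y RNA family, measured 86.6, 1170, 75.4 and 82.4 CPM in A and 1310, 1038, 570, 576 and 1772 CPM in E. In the injured rats it measured 51.6, 91.5 and 68.6 CPM in B, 54.2, 90.6 and 66.4 CPM in C, and 745 and 969 CPM in D. Rats 70, 83 and 84 of A lay within the range of B and C, and rat 82 within the range of E. The neighbouring copy AABR07060522.3 (ENSRNOG00000060430) was likewise high in rat 82, D and E, at 170, 1126, 126 and 127 CPM in A, 94.3, 177 and 131 CPM in B and 105, 152 and 126 CPM in C. It reached 809 and 1185 CPM in D and 1263, 1340, 866, 760 and 2115 CPM in E. Reads that match near-identical copies can be lost or shared in counting, so the level of each copy is uncertain.

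The spliceosomal RNAs were likewise low in B, C and most of A and high in D and E, at fewer counts. The U6atac snRNA AABR07051357.1 (ENSRNOG00000055021) measured 1.62, 11.2, 1.65 and 1.06 CPM in A and 24.8, 11.4, 9.55, 10.3 and 22.5 CPM in E. It measured 0.665, 2.42 and 1.92 CPM in B, 1.05, 1.70 and 0.857 CPM in C, and 14.98 and 18.8 CPM in D. Every rat of D and E thus stood at more than 3 times the highest rat of B and C. AC119459.4 (ENSRNOG00000059272), matched to the human U5 gene RNU5E-1, measured 0.203, 6.36, 1.74 and 1.25 CPM in A and 9.26, 5.85, 3.54, 10.3 and 14.6 CPM in E. Its levels were 0.856, 1.26 and 1.63 CPM in B, 0.961, 0.471 and 0.857 CPM in C, and 8.72 and 11.9 CPM in D. The neighbouring snRNA AC119459.5 (ENSRNOG00000059280), with no human match, averaged 3.04 ± 3.28 CPM (SD, n = 4) in A, 1.47 ± 0.249 CPM (n = 3) in B, 1.88 ± 0.607 CPM (n = 3) in C, 10.1 ± 1.38 CPM (n = 2) in D and 10.1 ± 2.91 CPM (n = 5) in E.

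Among the snoRNAs, AABR07036645.1 (ENSRNOG00000054746), matched to SNORA49, measured 7.21, 17.2, 8.06 and 8.35 CPM in A and 29.1, 20.4, 16.5, 17.1 and 27.9 CPM in E. It measured 4.94, 6.10 and 6.35 CPM in B, 4.80, 8.01 and 6.69 CPM in C, and 19.7 and 14.7 CPM in D. Its span was narrower than that of the Y RNAs, but D and E again lay above B and C. Of the snoRNAs with no human match, AC114512.2 (ENSRNOG00000060810) averaged 6.44 ± 4.28 CPM in A, 4.11 ± 2.04 in B, 4.12 ± 0.475 in C, 11.5 ± 0.298 in D and 13.9 ± 2.5 in E. AABR07036375.1 (ENSRNOG00000056978) averaged 3.53 ± 1.77 CPM in A, 2.5 ± 0.351 in B, 2.25 ± 0.0662 in C, 6.89 ± 1.67 in D and 8.69 ± 3.65 in E.

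**Figure D2:**
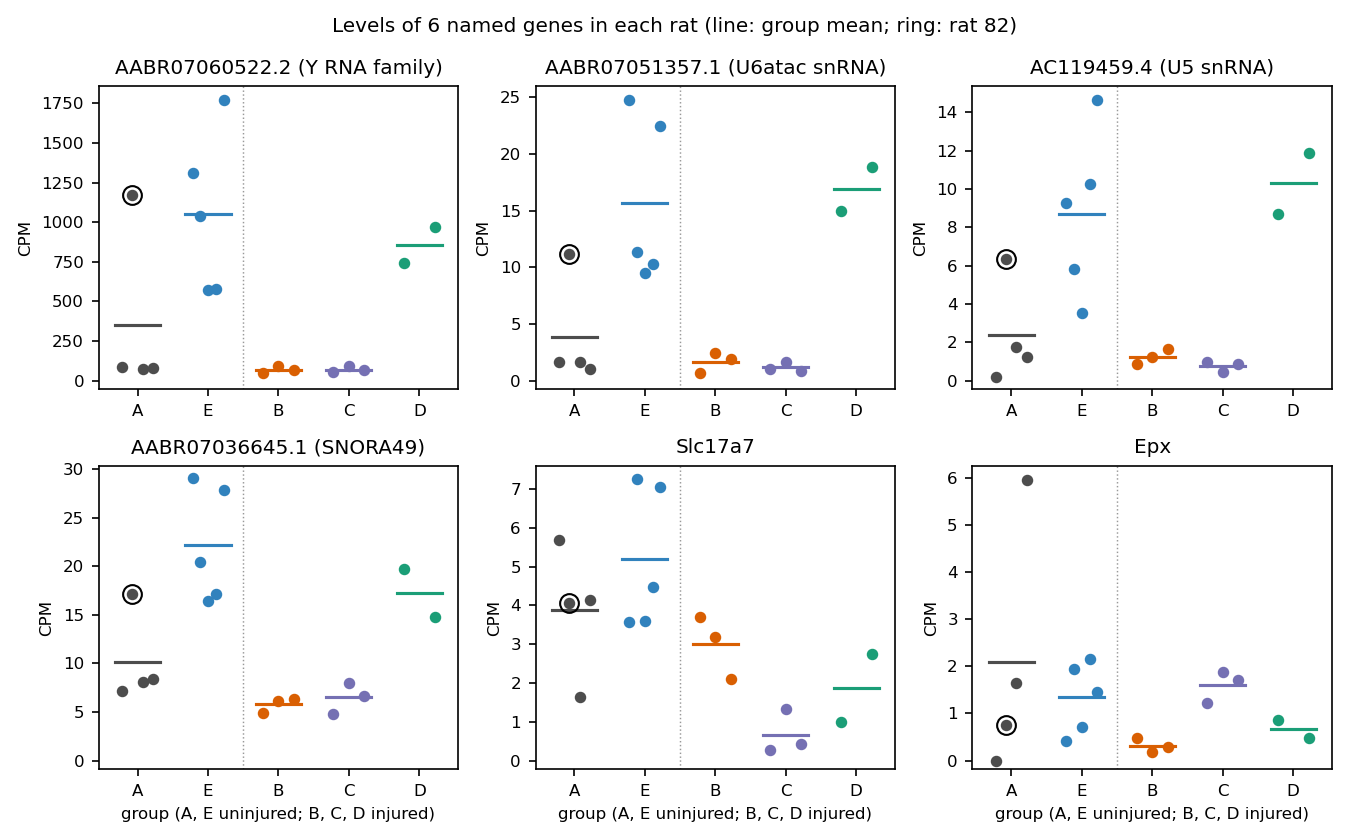
CPM of 6 named genes in each rat, by group; points are rats, lines are group means, the ring marks rat 82 of A, and the dotted line parts the uninjured groups A and E from the injured groups B, C and D. In the 4 small RNAs the rats of D lay beside those of E, whereas in Slc17a7 the 3 rats of C were lowest but for 1 rat of D, and in Epx 1 rat of A, at 5.95 CPM, stood above the rest.

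Of the 2 protein-coding members, Slc17a7 (ENSRNOG00000020650) was lowest in injured rats that had been stimulated. It measured 5.68, 4.06, 1.65 and 4.13 CPM in A, 3.57, 7.25, 3.61, 4.49 and 7.06 CPM in E, and 3.71, 3.19 and 2.12 CPM in B. In C it measured 0.262, 1.32 and 0.429 CPM, and in D 1.01 and 2.76 CPM. All 3 rats of C lay below all rats of A, B and E, while the rats of B lay within the range of A. In ±st(SCI), the contrast of C with B, the log2(FC) was -2.16 (SE 0.57), with an unadjusted p of 0.00158 and an FDR of 0.999 in the edgeR quasi-likelihood test over all genes. The D - C difference was 1.43 (SE 0.65), with an unadjusted p of 0.0431 and an FDR of 0.536. The difference between the stimulation effects in injured and uninjured rats, (C - B) - (E - A), was -2.55 (SE 0.68), with an unadjusted p of 0.00170 and an FDR of 0.923. None of these passed the correction, whereas the study called Slc17a7 lower in ±st(SCI) with the exact test of edgeR. The exact test run here on B and C alone did not call it. Slc17a7 was the 1 gene of the 20 in the glutamate transmission list that had a name in the table.

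Epx (ENSRNOG00000008707) depended on few rats. It measured 0, 0.766, 1.65 and 5.95 CPM in A, 0.425, 1.95, 0.707, 2.15 and 1.46 CPM in E, and 0.475, 0.194 and 0.288 CPM in B. It measured 1.22, 1.89 and 1.71 CPM in C and 0.864 and 0.476 CPM in D, so that C lay within the range of the uninjured rats. Rat 84 of A held 39.5% of the sum over the uninjured rats, and without it the log2 ratio of injured to uninjured was -0.32. Epx also missed the threshold without any 1 of 5 other rats, among them all 3 of B, at ratios of -0.79 to -0.70. In ±st(SCI) the log2(FC) was 2.30 (SE 1.05), with an unadjusted p of 0.0431 and an FDR of 0.999 by the same test. The 10 granulocyte and 11 erythroid markers take their names from the same list of genes that changed in these contrasts and rats, so their sums are a description and no independent evidence. Summed granulocyte markers, which did not include Epx, were higher in C (93.1 to 167 CPM) than in B (19.5 to 28.4 CPM) and D (28.7 to 40.3 CPM). They ranged from 6.39 to 88.6 CPM in A and from 7.48 to 83.2 CPM in E, so that every rat of C exceeded them. The erythroid sum was 613 to 1773 CPM in C, 304 to 422 CPM in B and 246 to 357 CPM in D, and at 208 to 1061 CPM in A and 258 to 617 CPM in E it overlapped that of C. The part of these cells in the differences of C from B and of D from C was not tested.

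In 9 of the 75 genes a single rat held more than 30% of the sum over the 9 uninjured rats. Rat 83 of A was that rat in 7 of them, rat 84 of A in Epx, and rat 69 of E in 1. Without rat 83 the rule gave 85 genes, of which 65 were among the 75.

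Of the injured groups, D differed from B and C mainly in the 12 small RNAs with a name. Those names came from the study's list of genes that changed with stimulation or pimozide, so the difference is not independent of the naming. The type of the 61 unnamed members is not known, and both rats of D lay above all rats of C in 10 of them. The counts that follow use the values of the rule and describe the list only. Against the mean of the 9 uninjured rats, 60 of the 75 genes were at or below a log2 ratio of -0.8 in B (median -1.08), 59 in C (median -1.13) and 40 in D (median -0.87), where 1.22%, 1.31% and 1.38% of all genes with an uninjured mean of at least 1 CPM were. In D, 62 genes were lower and 13 higher than in the uninjured rats, and 12 of those 13 were the small RNAs, whose median log2 ratio was 0.26 in D against -2.12 in B and -1.88 in C. Among the other 63 members the groups were closer, with 48 at or below -0.8 in B (median -0.99), 47 in C (median -1.07) and 40 in D (median -0.94). The 13th gene higher in D was ENSRNOG00000052577, which had no name and was likewise high in D and E, with 5.07 ± 1.36 CPM (SD) in A, 3.17 ± 1.28 in B, 4.00 ± 1.10 in C, 9.89 ± 1.35 in D and 12.4 ± 4.53 in E.

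The choice of uninjured group mattered most for the small RNAs, but also for the rest. Over group A alone the median log2 ratio of the 8 injured rats was -0.07 for the 12 small RNAs, with none at or below -0.8, and over group E it was -1.34, with all 12 at or below -0.8. The value over A includes rat 82, whose sum over these RNAs was 2369 CPM against 224 to 277 CPM in the other rats of A. Without rat 82 the ratios over A would be higher. For the other 63 members the median was -0.85 over A, with 35 at or below -0.8, and -0.98 over E, with 52. With A as the sole uninjured group, 77 genes met the rule, of which 33 were among the 75. With E alone 127 genes did, of which 63 were among the 75. The small RNAs thus met the rule over E and not over A, and which of them met it changed with single rats: 9 of the 12 no longer did without rat 69 of E, 9 without rat 88 of E, 8 without rat 91 of B and 3 without rat 82 of A, and 3 of the 12 met it whichever rat was left out.

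**Figure D3:**
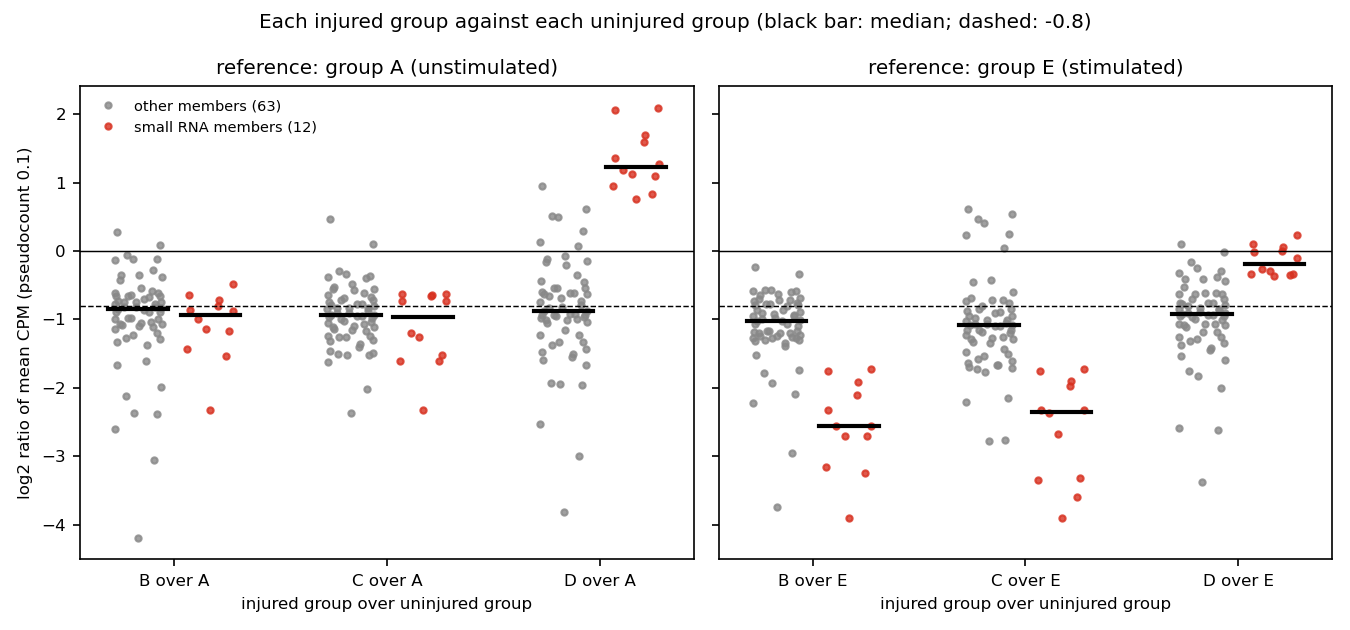
Log2 ratio of mean CPM (0.1 added) of each injured group over A (left) and over E (right) for the 75 genes; red points are the 12 small RNAs, grey points the other 63 genes, black bars their medians, and the dashed line the threshold of -0.8. The small RNAs were below 0 in B and C on both sides, while in D their median was 1.23 over A and -0.18 over E. Group A includes rat 82, its highest rat in all 12 small RNAs, so their ratios over A would be higher without it.

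The gene-wise tests of injury are given for description alone, since the rule used the same contrasts. Calls required an FDR below 0.05 together with a log2(FC) beyond 1 in either direction. In ±SCI(0), the contrast of B with A, 10 of the 75 were called lower (0.213% of all genes tested), and DESeq2 called 17 (0.155%). In ±st/SCI(0), C against A, 20 were (0.433%), and in ±SCI(st), C against E, 47 were (0.977%), with 12 of the 12 small RNAs among them. In D against E, 16 were (0.492%), with none of the small RNAs. These contrasts share groups with one another.

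Stimulation of injured rats, ±st(SCI), gave few differences within the list. None of the 75 genes was called by the edgeR quasi-likelihood test (0.0% of 15460 genes tested) or by DESeq2 (0.0%), and the exact test on B and C alone called 1, Epx (FDR of 0.0122; 0.151% of all genes). At an unadjusted p under 0.05 there were 2 higher, Epx and 1 unnamed gene (1.7% of all genes), and 2 lower, Slc17a7 and 1 unnamed gene (1.38%). The median log2(FC) of the 75 was -0.04 against 0.00 over all genes, and that of the small RNAs was -0.01. The small RNAs ranged from -0.68 in AC119459.4 (SE 0.90) to 0.36 in AC119459.5 (SE 0.64), so differences of this size between B and C were not detectable.

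Pimozide before stimulation, ±pim(st/SCI), gave no call among the 75 by the quasi-likelihood test (0.0259% of all genes), but the small RNAs lay to one side. DESeq2 called 4 members higher in D, all of them small RNAs (0.134% of all genes), and the exact test on C and D alone called 13, with the 12 small RNAs among them (0.337%). At an unadjusted p under 0.05, 20 genes were higher in D than in C (4.2% of all genes) and 2 were lower (4.66%), and the 20 included all 12 small RNAs. In 12 of the 12 both rats of D lay above all rats of C, as they did in 10.5% of all genes and in 20 of the 21 named small RNAs that are not members. Both sets were named from the study's list of genes that changed in these contrasts and rats, so these counts are no independent evidence. Their log2(FC) ran from 1.38 in SNORA49 to 3.78 in U6atac (SE 0.78, FDR 0.106, the smallest in the list), with a median of 2.51, whereas the 75 had a median of 0.29 and all genes one of -0.02. The Y RNA copies had log2(FC) of 3.57 (SE 0.93) and 2.93 (SE 0.73), with FDRs of 0.196 and 0.195, and AC119459.4 one of 3.68 (SE 0.79, FDR 0.116). In the quasi-likelihood test the calls depended on rat 82 of A and on the filter. Without rat 82, 9 of the 12 small RNAs and no other member were called (0.155% of all genes). The FDR was then 0.00121 and 0.00130 for the Y RNA copies and 0.00194 for U6atac. With rat 82 and no filter on low counts, 2 members were called (0.071% of all genes). Rat 82 is singled out here because it stood apart in these same genes. Leaving it out narrows their spread, so these FDRs are a description and no independent evidence. The fold changes of D over C barely differ with and without rat 82, which enters them only through the shared estimate of the spread.

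D against B shares both rats of D and the same named small RNAs with D against C. Its likeness to that contrast is therefore no independent evidence. None of the 75 was called (0.0194% of all genes), whereas DESeq2 called 3 (0.0919%) and the exact test on B and D alone 13 (0.381%), all of them higher in D. In the quasi-likelihood test 15 were higher (4.13%) and 3 lower (4.48%) at an unadjusted p under 0.05, with all 12 small RNAs among the 15. Both rats of D lay above all rats of B in 12 of 12 small RNAs and in 11.3% of all genes. The median log2(FC) was 2.60 in the small RNAs, 0.24 in the 75 and -0.01 over all genes. Without rat 82 of A, 9 small RNAs and no other member were called (0.168% of all genes). As in D - C, leaving out that rat narrows the spread of these genes, so the calls are a description. Both rats of D belonged to the low number series. Within that series, with 2 injured and 2 uninjured rats, the median log2 ratio of injured to uninjured was 0.34 for the small RNAs and -0.76 for the other 63, and within the high series, with 6 and 7 rats and none of D, it was -2.0 and -1.02. All rats of B and C were of the high series, so pimozide and the number series cannot be told apart by comparing D with them directly. A term for the series, which rests on rats 69 and 70, left the median log2(FC) of the small RNAs at 2.80 in D - C and 2.97 in D - B, with no member called and a smallest FDR of 0.693 and 0.495 among the small RNAs, and put that of the 75 at 0.55 and 0.36.

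**Figure D4:**
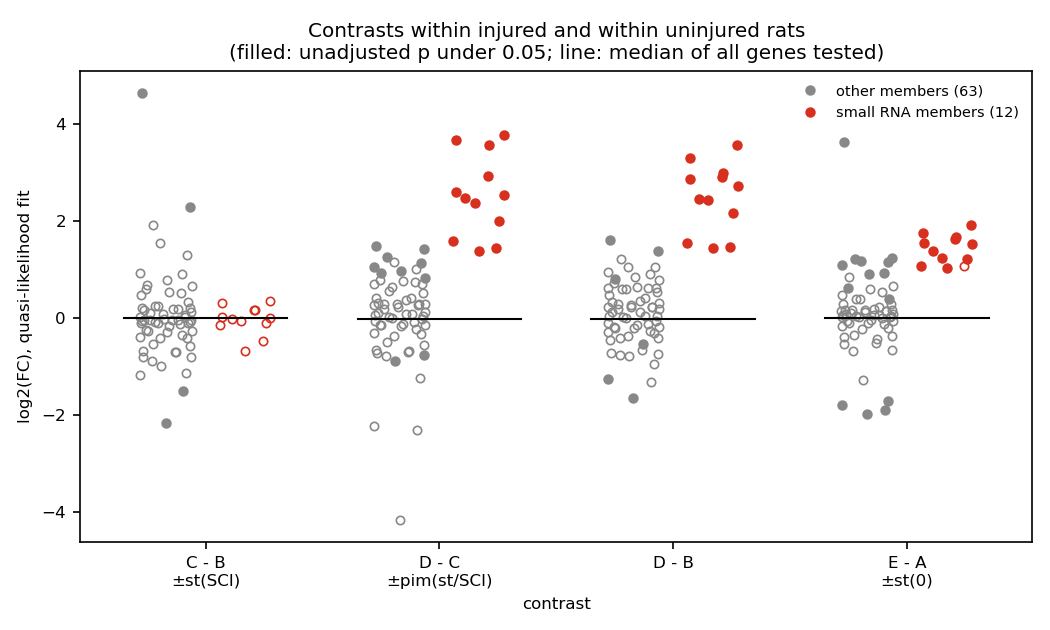
Log2(FC) of the 75 genes in the contrasts C - B, D - C, D - B and E - A; red points are the 12 small RNAs, grey points the other 63 genes, filled points have an unadjusted p under 0.05, and the black lines are medians over all genes tested. The small RNAs lay around 0 in C - B and above 1 in D - C, D - B and E - A.

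Stimulation of uninjured rats, ±st(0), gave no call among the 75 by the quasi-likelihood test (0.0% of all genes). DESeq2 called 3 higher in E (0.0627% of all genes) and the exact test on A and E alone 3 (0.109%), and SNORA49 and ENSRNOG00000052577 were in both calls. At an unadjusted p under 0.05, 21 genes were higher in E than in A (3.58% of all genes) and 4 were lower (4.81%), and 11 of the 21 were small RNAs. The exception, AABR07052881.1 (matched to SNORD67), had a log2(FC) of 1.07 (SE 0.58, unadjusted p of 0.0814 and FDR of 0.645 by the quasi-likelihood test) and is named after its value was seen. The median log2(FC) was 1.47 in the small RNAs, 0.15 in the 75 and 0.01 over all genes, and the smallest FDR in the list was 0.262, reached by SNORA49 (log2(FC) of 1.07, SE 0.25) and by ENSRNOG00000052577 (1.24, SE 0.29). Among the 3 named members with the smallest p were also AABR07036375.1 (1.24, SE 0.32) and AC119459.5 (1.64, SE 0.43), both with an FDR of 0.297. As a high level in E favoured the choice of a gene, these counts restate the rule in part. In the quasi-likelihood test the calls again turned on rat 82 of A. As that rat stood apart in these same genes, the fit that leaves it out is a description. Without rat 82, 11 of the 12 small RNAs and no other member were called (0.317% of all genes). The log2(FC) of AABR07060522.2 went from 1.54 to 3.66 and that of U6atac from 1.92 to 3.39.

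The difference between the effects of stimulation in injured and in uninjured rats, (C - B) - (E - A), was not called for any of the 75 by the quasi-likelihood test (0.0% of all genes) or by DESeq2 (0.0%). At an unadjusted p under 0.05 there were 5 higher (2.34% of all genes) and 12 lower (1.77%), with 4 small RNAs among the 12, and the median was -0.31 in the 75, -1.44 in the small RNAs and 0.00 over all genes. Without rat 82 of A the 2 Y RNA copies were called (0.0194% of all genes), with log2 differences of -3.66 (SE 0.51) and -3.20 (SE 0.45) and an FDR of 0.0201 each by the quasi-likelihood test. Their C - B differences were 0.00 and -0.06, so these values are close to E - A with its sign changed and restate the choice of genes high in E in the same way. The 15 genes with no overlap between injured and uninjured rats had medians of -0.04 in C - B, -0.02 in D - C and 0.03 in E - A, and the number with an unadjusted p under 0.05 was 0 in C - B and in the difference of effects, 1 lower in D - C, 1 lower in D - B and 1 higher in E - A.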

How the data were processed

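RNA was measured in 17 rats of 5 groups, 1 library per rat. The values are counts of reads per Ensembl gene as deposited, not normalized; per their methods and the submitters' processing notes, the authors trimmed reads with Trim Galore 0.4.1, aligned them to the rat genome with STAR 2.5.0a and counted per gene with GeneCounts. The notes list bcl2fastq 1.8.4 where the methods name another version, and the 2 also name different builds, so no coordinates are given, and the strand setting of counting is not given in the sources used here.

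Genes were chosen on CPM from total counts, as the report states. Gene-wise tests used edgeR 4.0.16 in R 4.3.3: filterByExpr (15460 genes left, all 75 members among them), TMM scaling and glmQLFit with 1 coefficient per group over the 17 rats, glmQLFTest and Benjamini-Hochberg adjustment (FDR) over all genes. The replicates are separate rats, and the p-values measure the spread between them. Alternatives were RLE and total-count scaling, other filters, DESeq2 1.42.0, an exact test on 2 groups alone, a term for the number series, no limit on fold change, and each rat left out. Summaries used Python 3.11.15 with pandas 2.3.3 and numpy 2.4.6.

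The members, lists and tests were chosen with earlier results of these data known. Only 99 identifiers could be named, all from the study's list of genes that changed with stimulation or pimozide. Named are the 10 members with the lowest ratio among those at 5 CPM or more when uninjured, the 10 with the highest uninjured mean, up to 3 per gene list, any member called in a tested contrast (the 5 with the smallest p where over 10 were called), those beside the threshold, and the 3 with the smallest p in C - B, D - C and E - A, skipping unnamed genes except called ones and those beside the threshold, which are given by their values. Exceptions are said to be picked after their values were seen.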

Additional observations from a re-analysis of the deposited data

Results flagged for a closer look

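Rat 82 of group A lay far from the other 3 rats of A in 8 of the 12 small RNAs and in their sum, by the gap between it and its nearest neighbour as a share of the range of the group (Dixon's test). Its values were 1170 CPM in AABR07060522.2, 1126 CPM in AABR07060522.3, 11.2 CPM in AABR07051357.1, 17.2 CPM in AABR07036645.1 and 7.96 CPM in AC119459.5. They were 1.91 CPM in AABR07050379.1, 3.14 CPM in AABR07029907.3 and 12.9 CPM in AC114512.2, and the sum over the 12 was 2369 CPM. In each case the gap was at least 0.882 of the range. Of 36 groups of values looked at, 9 were flagged, all of them for rat 82, where chance flags about 1 in 20 groups, and the small RNAs of 1 rat are not independent of each other. No group of values from E was flagged.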

How the results depend on the processing

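The count of members chosen depended on the rule itself. With medians over the rats in place of means 125 genes met it, with 0.5 CPM added 39, with a minimum of 0.5 CPM 115, and with rats 82 to 95 alone 140. With E as the sole uninjured group it gave 127 and with B and C as the sole injured groups 129, both settings chosen after seeing the data. Leaving out 1 rat gave 58 to 101. The 15 genes with no overlap were 15 with TMM scaling too.

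The calls depended on the test and on rat 82 of A. Members called in C - B, D - C, D - B and E - A were 1, 13, 13 and 3 with the exact test on 2 groups scaled by total counts, and 0, 4, 3 and 3 with DESeq2, which also called 17 members lower in B - A (0.155% of all genes), a contrast the rule used. With no filter on low counts 2 were called in D - C (0.071% of all genes). Leaving out 1 rat gave 0 to 9 in D - C and in D - B, 0 to 11 in E - A and 0 to 2 in the difference of effects, with every call above 0 in the fit without rat 82, and 0 in C - B throughout. The cause was not tested. The median log2(FC) of the members in D - C was 0.55 with a term for the number series and 0.16 to 0.45 without 1 rat, and that in C - B was -0.0653 to 0.13 without 1 rat. Of 960 recomputed values of 40 genes and contrasts, 65 passed the threshold that the reported value had missed, 29 of them without rat 82, and none changed sign. With 2 rats in D the spread within that group is poorly known, and members at 1 to 2 CPM rest on few reads. The exact test has no form for the difference of effects and was not run there. No paired analysis was possible because the groups share no replicate numbers.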
